A study of Homo sapiens with 9 samples.

Results

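A set of 10 Notch pathway genes was followed in U937 cells, a human line with monocytic features, while either of 2 leukemia fusion proteins was switched on. They are the ligands JAG1, JAG2 and DLL1, the receptors NOTCH1 and NOTCH2, the nuclear effector RBPJ, and the targets HES1, HES4, HEY1 and NRARP. The members were taken by gene name, which matched 1 identifier each, and make up 10 of the 60623 genes listed for every library. At 48 h after induction of AML1-ETO, JAG1 had fallen 9.84-fold and NOTCH2 2.82-fold, while JAG2 had risen 3.03-fold. These were 3 of the 8 members with a mean of at least 1 FPKM. Of all genes tested, 22.5% passed 2-fold, leaving out those that moved likewise with an empty vector. NOTCH2 also fell with the empty vector, and beyond that change its fall was short of 2-fold. In the ETO2-GLIS2 line 0 of 8 such members passed 2-fold against 0 h at 12 h or at 48 h. The shares of all genes tested, taken in the same way, were 2.64% and 7.52%. DLL1, HES4 and NRARP were already higher in the AML1-ETO line before any drug was given.

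Notch signalling passes between touching cells. A ligand of the Jagged or Delta family on one cell binds a Notch receptor on its neighbour, the receptor is cut by an ADAM protease and by gamma-secretase, and the freed intracellular part enters the nucleus, binds RBPJ and recruits Mastermind coactivators. Genes of the HES and HEY families and the feedback inhibitor NRARP are then transcribed, and in blood formation the pathway is best known for the emergence of stem cells and for the T-cell fate.

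The 3 lines were U937 cells transduced with a doxycycline-inducible retroviral vector that held no insert, AML1-ETO (fusion of RUNX1 with RUNX1T1) or ETO2-GLIS2 (fusion of CBFA2T3 with GLIS2). Both fusion proteins carried an HA tag. Every line was sequenced without doxycycline and after 12 h and 48 h of the drug at 5 µg/ml, so that the empty vector line, labelled wild type, received the drug as well. Each of the 9 conditions had 1 library. The lines were puromycin-selected and grown from single cells, so each stands for 1 clone (clone #4 for AML1-ETO and clone #14 for ETO2-GLIS2), and a difference between lines cannot be told apart from a difference between clones.

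No comparison had a replicate check, and no p-value was computed. The authors deposited FPKM, which divides reads by exon length and by library total. The low values imply the library totals and hence the reads behind each value, with 15136411 to 18443656 reads on genes per library. Intervals given here are 95% intervals for counting error alone (exact Poisson for a level and exact Clopper-Pearson for a ratio of reads). They leave out variation between cultures, and the reads carry no molecular identifiers, so they need not be independent molecules. In bulk RNA, fewer cells that express a gene cannot be told apart from less of its RNA in each cell.

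The transgenes followed the labels. RUNX1T1, whose sequence the AML1-ETO construct carries, was at 0.512, 22.2 and 28.7 FPKM over the 3 hours where AML1-ETO was induced and stayed at or below 0.0240 FPKM in the other 6 libraries. In the ETO2-GLIS2 line, GLIS2 was at 2.39, 6.79 and 8.85 FPKM and CBFA2T3 at 4.1, 11.4 and 12.6 FPKM, both of them also expressed from the cell's own genes in the empty vector line. Of 10 monocytic and myeloid markers, 7 exceeded 1 FPKM in all 9 libraries. The neutrophil granule enzyme gene MPO stayed at or below 0.780 FPKM. The monocyte and macrophage markers CSF1R (0.0128 to 1.55 FPKM) and ITGAM (0.832 to 11.5 FPKM) were also below 1 FPKM in at least 1 library. The summed level of the 10 markers spanned 965 to 1540 FPKM with the empty vector, 383 to 2271 FPKM with AML1-ETO and 829 to 2252 FPKM with ETO2-GLIS2. Its part in the results was not tested. LYZ (45.1 to 1517 FPKM) and ELANE (66.7 to 544 FPKM) had the widest ranges among them. The 3 T-cell markers CD3D, CD3E and CD3G were at 0 in every library, and no epithelial, fibroblast, erythroid or megakaryocytic marker reached 1 FPKM. Of the B-cell markers, MS4A1 was at 0 and CD79A ranged from 0.219 to 3.78 FPKM. Of the endothelial markers, CDH5 was at 0 and PECAM1, which myeloid cells express too, ranged from 13.6 to 28.2 FPKM.

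Stretches of 250 bases upstream of the annotated start are shown for the 3 targets that can be read against the RBPJ site and for NOTCH2, a member that fell with AML1-ETO. They are RefSeq sequences on GRCh38.p14, written 5′ to 3′ on the strand of the gene. Capitals mark the RBPJ core TGGGAA or, in NOTCH2, the Runt core, searched as TGNGGT with any base at N. That search is wider than TGT(C)GGT, the motif the study gives for the DNA-binding domain of AML1. Sequences of 8 of the 10 members, which have 12 annotated starts in all, were searched. DLL1 had no entry, and HEY1 was left out of the search.
HES1, chr3:194135898-194136147, plus strand: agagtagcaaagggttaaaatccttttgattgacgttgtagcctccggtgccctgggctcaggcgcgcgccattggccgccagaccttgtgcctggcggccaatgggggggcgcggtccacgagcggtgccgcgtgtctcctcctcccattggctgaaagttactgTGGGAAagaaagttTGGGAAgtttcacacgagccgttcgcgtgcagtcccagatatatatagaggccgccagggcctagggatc
HES4, chr1:1000098-1000347, minus strand: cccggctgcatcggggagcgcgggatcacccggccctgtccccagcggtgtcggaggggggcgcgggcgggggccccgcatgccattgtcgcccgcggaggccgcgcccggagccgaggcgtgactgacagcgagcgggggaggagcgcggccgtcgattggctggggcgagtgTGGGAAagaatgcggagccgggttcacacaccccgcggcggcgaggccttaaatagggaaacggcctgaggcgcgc
NRARP, chr9:137302272-137302521, minus strand: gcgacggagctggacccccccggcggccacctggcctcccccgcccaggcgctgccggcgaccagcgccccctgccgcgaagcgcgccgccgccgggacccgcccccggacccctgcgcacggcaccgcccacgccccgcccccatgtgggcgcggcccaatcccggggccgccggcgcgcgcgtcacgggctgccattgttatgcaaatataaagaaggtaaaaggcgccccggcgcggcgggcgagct
NOTCH2, chr1:120069663-120069912, minus strand: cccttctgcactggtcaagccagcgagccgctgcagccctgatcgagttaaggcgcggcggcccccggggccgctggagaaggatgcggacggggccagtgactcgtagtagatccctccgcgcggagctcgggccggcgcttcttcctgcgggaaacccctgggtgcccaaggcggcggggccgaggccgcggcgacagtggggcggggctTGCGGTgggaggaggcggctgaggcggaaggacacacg

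HES1 held the RBPJ core at 84 and 70 bases before its start, and HES4 held it at 76 bases before its start. No TGGGAA lay in the 250 bases shown for NRARP, on either strand. One RBPJ start, 1 of 5 annotated for that gene, held TGGGAA at 115 and 72 bases before it. The Runt core was found in NOTCH2 at 38 bases before the start and at 1 other RBPJ start, so 2 of the 8 genes held it. The other genes held none, among them JAG1, which fell most with AML1-ETO, and NOTCH1. The HES binding element CACNAG occurred at 3 places in HES1, at 165, 132 and 58 bases before the start, and at 55 bases before the RBPJ start that held the Runt core. The GLIS core TGGGGGGT was in none of the 8 genes. No match overlapped another. Over all 34943 promoters of this length, searched on both strands, TGGGAA was in 20.9%, TGNGGT in 37.7%, CACNAG in 32.1% and TGGGGGGT in 1.33%. These shares are per start, while the counts of members are per gene with a match at any start, so RBPJ entered with 5 starts. The matches are descriptions of letters and no binding was measured here.

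Of the 10 genes, 8 had a mean of at least 1 FPKM over the 9 libraries, the level taken here as measurable. By mean FPKM, which is per length, the order was RBPJ (20.6), NOTCH2 (19.7), NOTCH1 (14.9), DLL1 (6.96), HES4 (2.77), NRARP (2.50), JAG1 (2.44), JAG2 (1.47), HES1 (0.272) and HEY1 (0.0109). In mean level the effector and the receptors thus stood above all 3 ligands and all 4 targets, although in the AML1-ETO line at 48 h DLL1 (12.7 FPKM) exceeded NOTCH1 (8.50 FPKM) and NOTCH2 (8.36 FPKM). Neighbours in this order were not separated over the libraries: NOTCH2 spanned 8.36 to 24.9 FPKM and RBPJ 12.5 to 25.0 FPKM, and the ranges of HES4, NRARP and JAG1 overlapped. JAG1 varied most among the 8, with a highest level 12.9 times its lowest, and RBPJ least, at 2.0 times. The plot of FPKM by hour shows that most of this range came from the AML1-ETO line.

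**Figure D1:**
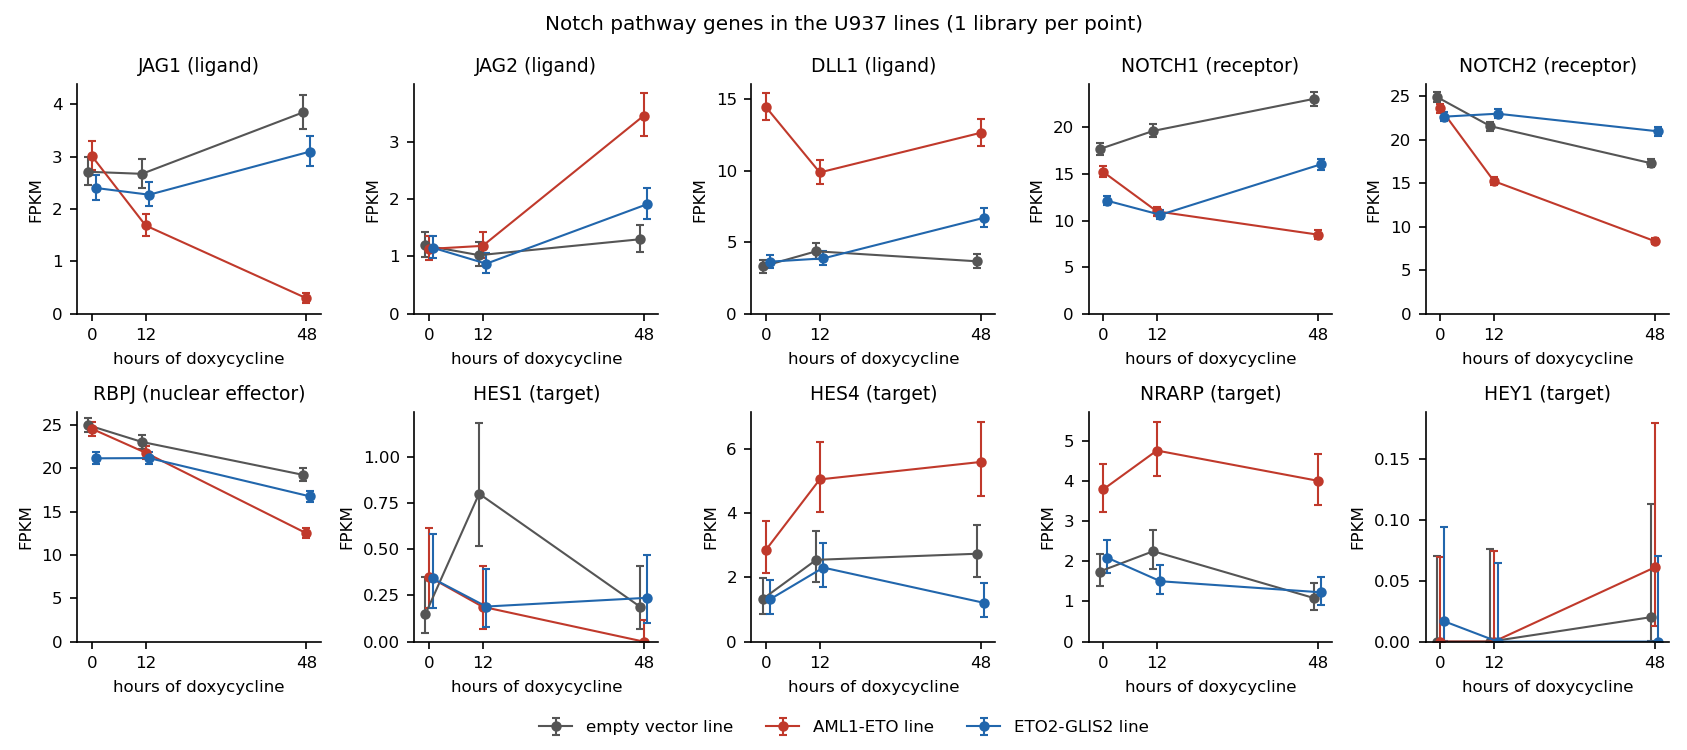
FPKM of each of the 10 genes (vertical axes, each with its own scale from 0) against hours of doxycycline in the empty vector, AML1-ETO and ETO2-GLIS2 lines, 1 library per point, with bars for the exact Poisson 95% interval of the reads. JAG1 in the AML1-ETO line runs down from 3.01 to 0.297 FPKM, JAG2 in that line runs up from 1.13 to 3.45 FPKM, and DLL1, HES4 and NRARP lie above the other lines at every hour there.

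A gene was called when log2 of FPKM plus 0.01 differed by more than 1 (2-fold) with a mean of at least 1 FPKM over the libraries compared, and calls in a fusion line left out genes that passed 2-fold the same way in the empty vector line. The pseudocount of 0.01 makes the change of genes near 0 smaller than the plain ratio. Where a library had 0 reads, the fold depends on the pseudocount and can be overstated. HES1 in the AML1-ETO line at 48 h came out 36.1-fold lower, where putting 3 reads in place of 0 gave 3.67-fold. At 12 h, 0 of 8 members were called in the AML1-ETO line, where 6.27% of all genes tested were called, and 0 of 8 in the ETO2-GLIS2 line, where 2.64% were. At 48 h, 3 of 8 members were called in the AML1-ETO line (JAG2 higher, JAG1 and NOTCH2 lower), against 22.5% of all genes tested, 12.6% higher and 9.88% lower. None of 8 was called in the ETO2-GLIS2 line at 48 h, against 7.52% of all genes. In the empty vector line, 0 of 8 members were called at 12 h (7.53% of all genes) and HES4 alone at 48 h (11.0% of all genes). The members' median log2 fold change at 48 h was -0.51 in the AML1-ETO line, where that of all genes tested was 0.22 and their 5th to 95th percentiles ran from -1.74 to 2.05. It was 0.13 in the ETO2-GLIS2 line and 0.14 in the empty vector line, where all genes had a median of 0.16 in each.

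**Figure D2:**
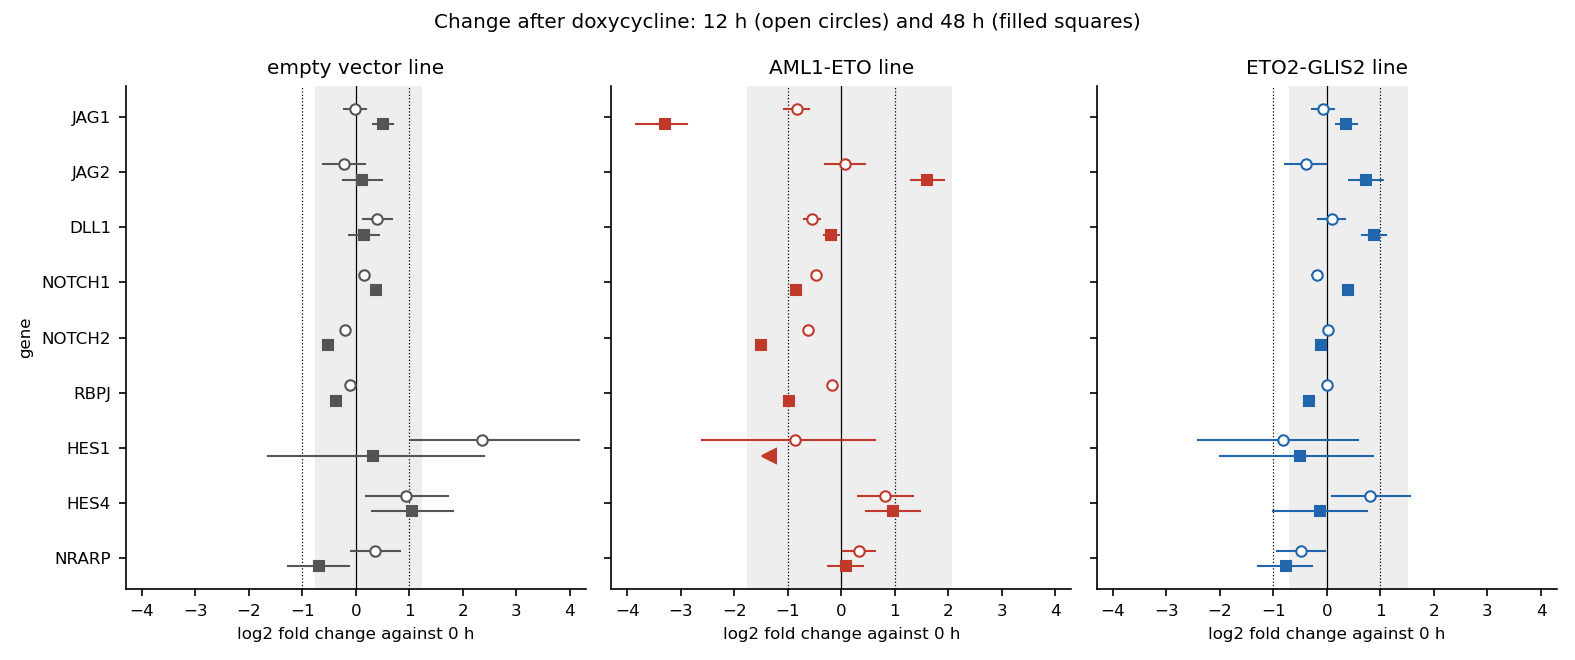
Log2 fold change of FPKM plus 0.01 against 0 h (horizontal axis) for 9 of the genes in each line, with open circles for 12 h, filled squares for 48 h and bars for the 95% counting interval. Grey bands hold the middle 90% of all genes tested at 48 h, dotted lines mark 2-fold, and the triangle is the upper bound for HES1, which had 0 reads at 48 h in the AML1-ETO line. JAG1 at -3.30 lies outside the grey band of the AML1-ETO panel, and JAG2 at 1.60 and NOTCH2 at -1.50 lie past 2-fold within it.

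JAG1 (ENSG00000101384, chromosome 20 from 10637684 to 10673999 on GRCh38.p14) encodes Jagged1, a membrane-bound Notch ligand. With AML1-ETO it was at 3.01, 1.69 and 0.297 FPKM over the 3 hours (464, 242 and 42 reads). The empty vector line had 2.71, 2.67 and 3.84 FPKM (410, 376 and 550 reads), and the ETO2-GLIS2 line had 2.40, 2.27 and 3.10 FPKM (412, 378 and 471 reads). The AML1-ETO libraries at 48 h and 12 h were the lowest and the second lowest of the 9, and the 3 uninduced libraries lay within 1.25-fold of each other. The log2 fold change in the AML1-ETO line was -0.83 (-1.07 to -0.61) at 12 h and -3.30 (-3.83 to -2.88) at 48 h. In the empty vector line at 48 h it was 0.50 (0.32 to 0.69), so that the change in the AML1-ETO line beyond that of the empty vector was -3.80 (-4.29 to -3.31). The ETO2-GLIS2 line, at 0.36 (0.17 to 0.56), differed from the empty vector line by -0.14 (-0.40 to 0.13). At 48 h the AML1-ETO line had 12.6-fold less JAG1 than the empty vector line. With a pseudocount of 1 FPKM the log2 fold change at 48 h was -1.63, because a value of 0.297 FPKM is then mostly pseudocount. Exons on the opposite strand overlap 3.29% of its exon bases, and the counting is not stated to use strand.

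JAG2 (ENSG00000184916, chromosome 14 from 105140995 to 105168776) encodes Jagged2, a ligand of the same family. The AML1-ETO line had 1.13, 1.19 and 3.45 FPKM (120, 117 and 336 reads). The empty vector line had 1.19, 1.02 and 1.30 FPKM (124, 99 and 128 reads), and the ETO2-GLIS2 line had 1.15, 0.874 and 1.91 FPKM (136, 100 and 200 reads). Both fusion lines at 48 h stood above the other 7 libraries, and the 3 uninduced libraries were within 1.05-fold. The log2 fold change at 48 h was 1.60 (1.30 to 1.92) in the AML1-ETO line and 0.72 (0.41 to 1.05) in the ETO2-GLIS2 line, and beyond the empty vector line these were 1.48 (1.01 to 1.94) and 0.60 (0.12 to 1.08). At 12 h the log2 fold changes were 0.07 (-0.31 to 0.45) and -0.40 (-0.79 to -0.02), so that neither line was past 2-fold. Between 12 h and 48 h, JAG2 rose in both fusion lines, by a log2 of 1.53 (1.23 to 1.86) with AML1-ETO and 1.12 (0.78 to 1.49) with ETO2-GLIS2, and it was the sole member called in either (17.6% and 6.40% of all genes were). JAG1 in the AML1-ETO line was 5.53-fold lower over the same span but missed the filter. For JAG2 in the empty vector line that span brought 0.34 (-0.04 to 0.74). The difference between the fusion lines' changes from 0 h to 48 h was 0.88 (0.44 to 1.31). Another gene on the same strand overlaps 7.33% of the exon bases of JAG2, so part of its reads are uncertain.

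DLL1 (ENSG00000198719, chromosome 6 from 170282206 to 170291078) encodes Delta-like 1. The AML1-ETO line had 14.4, 9.89 and 12.7 FPKM (915, 583 and 736 reads), the empty vector line 3.32, 4.38 and 3.67 FPKM (206, 253 and 216 reads), and the ETO2-GLIS2 line 3.65, 3.88 and 6.72 FPKM (257, 265 and 420 reads). All 3 AML1-ETO libraries lay above the other 6. Before induction the AML1-ETO line had 4.35-fold more DLL1 than the empty vector line, a log2 difference of 2.12 (1.90 to 2.35). Within that line the log2 change was -0.55 (-0.70 to -0.40) at 12 h and -0.19 (-0.33 to -0.05) at 48 h. Measured against the uninduced empty vector library, the same 48 h value was 1.93, of the opposite sign, since the line started high. In the ETO2-GLIS2 line, DLL1 was 1.84-fold higher at 48 h than at 0 h, a log2 of 0.88 (0.65 to 1.11) and of 0.73 (0.38 to 1.09) beyond the empty vector line. That is short of 2-fold. Exons on the opposite strand overlap 9.69% of its exon bases.

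Summed over the 3 ligands, the AML1-ETO line had 18.6, 12.8 and 16.4 FPKM over the 3 hours, the empty vector line 7.22, 8.07 and 8.82 FPKM, and the ETO2-GLIS2 line 7.20, 7.03 and 11.7 FPKM. DLL1 held 77.7%, 77.5% and 77.2% of the sum in the AML1-ETO line, and thus nearly the same share throughout. JAG1 went from 16.2% to 13.2% and 1.81% of it, and JAG2 from 6.09% to 9.29% and 21.0%. The ratio of JAG2 to JAG1 was therefore 0.376, 0.703 and 11.6 in the AML1-ETO line. It stayed between 0.338 and 0.440 in the empty vector line and between 0.385 and 0.617 in the ETO2-GLIS2 line. A ratio of FPKM within a library does not depend on the library total, so it is untouched by the scaling.

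**Figure D3:**
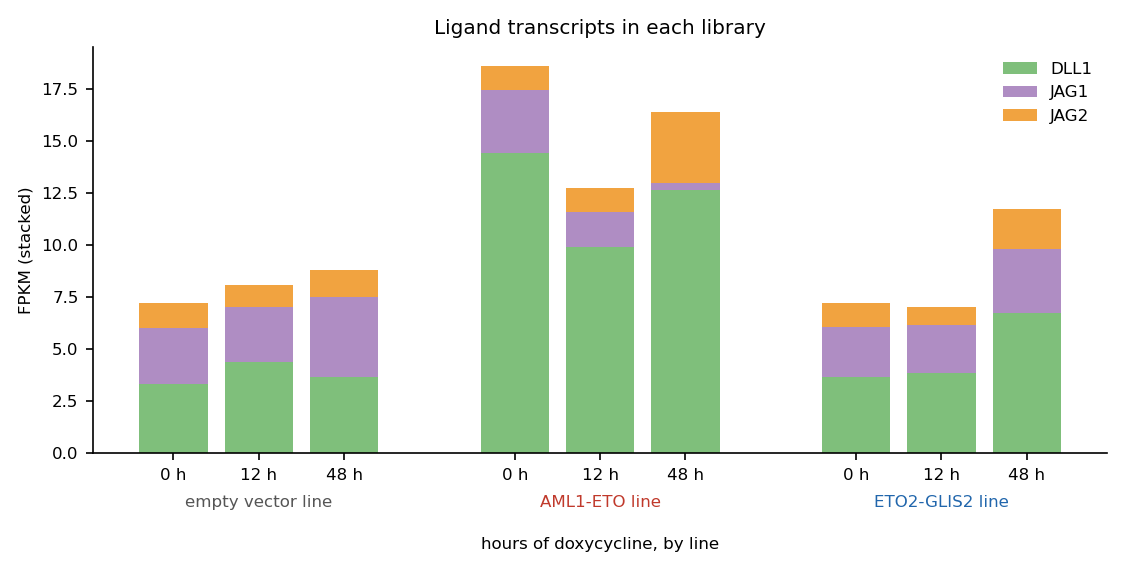
Stacked bars of the FPKM of DLL1, JAG1 and JAG2 in each library (vertical axis, FPKM; horizontal axis, hours of doxycycline within each line; 1 library per bar). DLL1 makes up 77.2% to 77.7% of the AML1-ETO bars, while the JAG1 part shrinks to 1.81% and the JAG2 part grows to 21.0% at 48 h.

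NOTCH1 (ENSG00000148400, chromosome 9 from 136494433 to 136546048) encodes a receptor and is the family member most used in T-cell development. It was at 17.7, 19.6 and 23.1 FPKM in the empty vector line (3059, 3160 and 3777 reads). In the AML1-ETO line it was at 15.2, 11.0 and 8.50 FPKM (2685, 1805 and 1376 reads), and in the ETO2-GLIS2 line at 12.1, 10.6 and 16.1 FPKM (2383, 2021 and 2794 reads). The empty vector libraries were all above the other 6, and such a separation of that line in either direction held for 1 of 8 members and for 3.95% of all genes with a mean of at least 1 FPKM. At 48 h the log2 fold change was -0.84 (-0.94 to -0.75) with AML1-ETO, 0.40 (0.32 to 0.48) with ETO2-GLIS2 and 0.38 (0.31 to 0.45) with the empty vector. None of these reached 2-fold. Beyond the empty vector line, however, the AML1-ETO change was -1.22 (-1.34 to -1.11), which is past it, and the ETO2-GLIS2 change was 0.02 (-0.09 to 0.12). Compared at 48 h directly, the AML1-ETO line had 2.71-fold less NOTCH1 than the empty vector line.

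NOTCH2 (ENSG00000134250, chromosome 1 from 119911553 to 120069662) encodes the receptor with roles in B cells and in monocyte subsets. The AML1-ETO line had 23.6, 15.3 and 8.36 FPKM (7805, 4692 and 2534 reads). The empty vector line had 24.9, 21.6 and 17.3 FPKM (8086, 6508 and 5309 reads), and the ETO2-GLIS2 line had 22.7, 23.0 and 21.0 FPKM (8331, 8201 and 6838 reads). All 3 lines began within 1.10-fold of each other, and at 48 h the order was ETO2-GLIS2, empty vector and AML1-ETO. The log2 fold change at 48 h was -1.50 (-1.56 to -1.43) with AML1-ETO, -0.53 (-0.58 to -0.48) with the empty vector and -0.11 (-0.16 to -0.07) with ETO2-GLIS2. With the empty vector change subtracted, the AML1-ETO value was -0.97 (-1.05 to -0.89), no longer past 2-fold, and the ETO2-GLIS2 value was 0.42 (0.35 to 0.48), of the opposite sign to the plain change. NOTCH2 shares near-identical sequence with the NOTCH2NL copies, of which NOTCH2NLC was listed at 0.628 to 1.2 FPKM and NOTCH2NLA and NOTCH2NLB at or below 0.0544 FPKM. Reads could be split among these genes, and their levels are uncertain.

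The summed receptor level was 38.8, 26.2 and 16.9 FPKM in the AML1-ETO line, against 42.6, 41.2 and 40.4 FPKM in the empty vector line and 34.8, 33.6 and 37.0 FPKM in the ETO2-GLIS2 line. Within the sum, NOTCH1 accounted for 39.2%, 41.9% and 50.4% in the AML1-ETO line. The same drift was present without a fusion protein, from 41.5% to 47.6% and 57.1% in the empty vector line, where NOTCH1 was higher and NOTCH2 lower with time.

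RBPJ (ENSG00000168214, chromosome 4 from 26105449 to 26435131) encodes the DNA-binding protein through which all Notch receptors act, and which holds corepressors at the same sites when no receptor fragment is present. It was at 25.0, 23.0 and 19.3 FPKM with the empty vector (3759, 3228 and 2742 reads), at 24.6, 21.8 and 12.5 FPKM with AML1-ETO (3769, 3114 and 1760 reads), and at 21.2, 21.2 and 16.8 FPKM with ETO2-GLIS2 (3611, 3506 and 2537 reads). In every line the 48 h library was the lowest. The log2 fold change at 48 h was -0.97 (-1.06 to -0.89) with AML1-ETO, just short of 2-fold, -0.38 (-0.45 to -0.30) with the empty vector and -0.34 (-0.41 to -0.26) with ETO2-GLIS2. Scaling by median ratios put the AML1-ETO value at -1.12, past 2-fold, and subtracting the empty vector change put it at -0.60 (-0.71 to -0.49).

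HES4 (ENSG00000188290, chromosome 1 from 998964 to 1000097) encodes a transcriptional repressor of the Hairy and Enhancer of split family. The AML1-ETO line had 2.86, 5.04 and 5.58 FPKM (53, 87 and 95 reads). The empty vector line had 1.32, 2.54 and 2.73 FPKM (24, 43 and 47 reads), and the ETO2-GLIS2 line had 1.31, 2.30 and 1.2 FPKM (27, 46 and 22 reads). At 12 h all 3 lines were higher than at 0 h, with log2 fold changes of 0.94 (0.19 to 1.73), 0.82 (0.31 to 1.34) and 0.81 (0.10 to 1.56) in the empty vector, AML1-ETO and ETO2-GLIS2 lines. By 48 h the empty vector line had risen 2.06-fold, a log2 of 1.04 (0.31 to 1.82), and the AML1-ETO line stood at 0.96 (0.47 to 1.48). The ETO2-GLIS2 line was back at -0.12 (-1.0 to 0.74) and was 2.26-fold below the empty vector line at that hour. The empty vector call did not hold with a pseudocount of 0.1 or 1 FPKM or with scaling by median ratios. Subtracting the empty vector change left the AML1-ETO line at -0.08 (-0.94 to 0.78) and the ETO2-GLIS2 line at -1.17 (-2.24 to -0.09).

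NRARP (ENSG00000198435, chromosome 9 from 137299631 to 137302271) encodes an ankyrin-repeat protein that binds the Notch transcription complex and dampens it. It was at 3.79, 4.76 and 4.01 FPKM in the AML1-ETO line (166, 194 and 161 reads), 1.75, 2.25 and 1.08 FPKM in the empty vector line (75, 90 and 44 reads), and 2.09, 1.5 and 1.23 FPKM with ETO2-GLIS2 (102, 71 and 53 reads). The AML1-ETO libraries were again above all others. Against 0 h, the AML1-ETO line at 48 h had a log2 fold change of 0.08 (-0.24 to 0.40), while the empty vector line had -0.68 (-1.26 to -0.13) and the ETO2-GLIS2 line -0.77 (-1.28 to -0.28). In the empty vector line NRARP fell 2.07-fold between 12 h and 48 h, a log2 of -1.05 (-1.61 to -0.52), and was the sole member called there (5.26% of all genes). Exons on the opposite strand overlap 2.76% of its exon bases.

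HES1 and HEY1, the targets most often used to read out Notch activity, were near or at the limit of these libraries. HES1 (ENSG00000114315, chromosome 3 from 194136148 to 194138732) had 5, 25 and 6 reads in the empty vector line, 12, 6 and 0 reads in the AML1-ETO line and 13, 7 and 8 reads in the ETO2-GLIS2 line. These correspond to 0.149, 0.802 and 0.189 FPKM, to 0.351, 0.189 and 0 FPKM, and to 0.342, 0.190 and 0.238 FPKM. The empty vector library at 12 h stood above the rest, at a log2 fold change of 2.35 (1.01 to 4.17), with the mean of its comparison below 1 FPKM. The 0 reads in the AML1-ETO line at 48 h had an upper Poisson limit of 0.118 FPKM, where 3 reads would be 0.0958 FPKM. The upper limit of the log2 fold change from 0 h was -1.35. HEY1 (ENSG00000164683) had at most 3 reads in any library and was at 0 in 6 of 9, the highest level being 0.0611 FPKM. No change of HEY1 was detectable at this depth.

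Before doxycycline, the AML1-ETO line already differed from the empty vector line in 3 of 8 members, all higher, where 4.90% of all genes passed 2-fold. DLL1 was 4.35-fold higher, HES4 2.16-fold with a log2 of 1.11 (0.39 to 1.88), and NRARP 2.16-fold with a log2 of 1.11 (0.72 to 1.53). Over the whole series, the 3 AML1-ETO libraries lay above the other 6 for these 3 of the 8 members, and 5.76% of all genes with a mean of at least 1 FPKM had this line wholly above or wholly below the others. The ETO2-GLIS2 libraries stood apart in this way for 0 of 8 members and 7.87% of all genes. The construct was not fully silent in that library, since RUNX1T1 stood at 0.512 FPKM, and its part in these differences was not tested. At 12 h, DLL1 and NRARP were called higher (2 of 8, against 8.77% of all genes). At 48 h, 7 of 8 members passed 2-fold between these lines, against 23.5% of all genes: DLL1 (3.44-fold), JAG2 (2.64-fold), HES4 (2.04-fold) and NRARP (3.68-fold) were higher with AML1-ETO, and JAG1 (12.6-fold), NOTCH1 (2.71-fold) and NOTCH2 (2.07-fold) were lower. RBPJ had a log2 of -0.62 (-0.71 to -0.54).

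Between the ETO2-GLIS2 line and the empty vector line, 0 of 8 members passed 2-fold at 0 h (6.41% of all genes) and 0 of 7 at 12 h (6.94% of all genes). At 48 h 1 of 8 did (6.67% of all genes), namely HES4 at -1.18 (-1.98 to -0.42). With so few members, these counts are near the shares of all genes. NOTCH1 was lower in this line at every hour, by a log2 of -0.54 (-0.62 to -0.46), -0.88 (-0.97 to -0.80) and -0.52 (-0.59 to -0.45). At 48 h, DLL1 stood at 0.87 (0.63 to 1.12) and JAG2 at 0.55 (0.23 to 0.89) above the empty vector line, with intervals clear of 0 and sizes below 2-fold.

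The fusion lines compared with each other at 48 h differed past 2-fold in 4 of 8 members, against 21.2% of all genes, where before induction they had differed in 2 of 8 (DLL1 and HES4), against 6.90%. At 12 h 3 of 8 were higher with AML1-ETO, against 5.33% of all genes, namely DLL1 (2.55-fold), HES4 (2.19-fold) and NRARP (3.15-fold). At 48 h JAG1 was 10.1-fold and NOTCH2 2.51-fold lower with AML1-ETO, and HES4 was 4.61-fold and NRARP 3.25-fold higher. These comparisons share libraries with those above and are not independent of them. The plot of ratios by hour sets the fusion lines side by side.

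**Figure D4:**
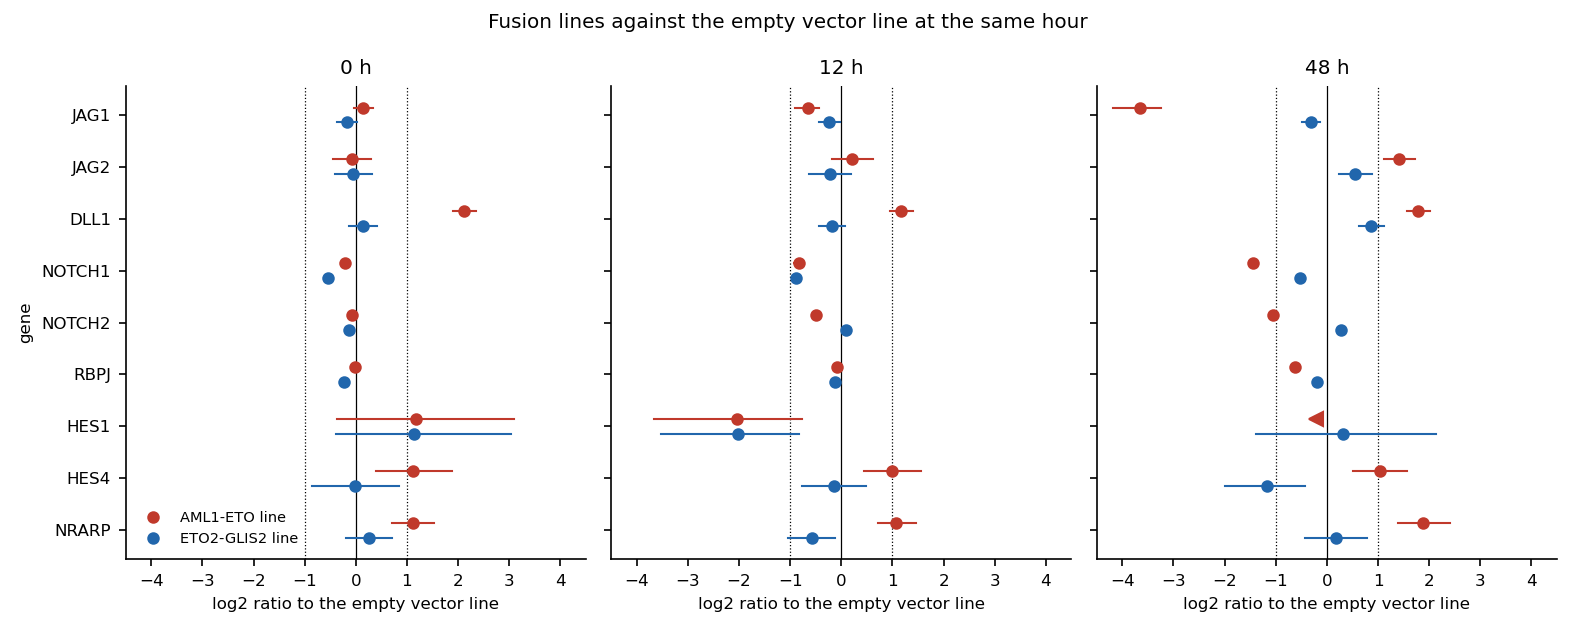
Log2 ratio of FPKM plus 0.01 to the empty vector line at the same hour (horizontal axis) for 9 of the genes at 0, 12 and 48 h, in the AML1-ETO and ETO2-GLIS2 lines, 1 library on each side, with 95% counting intervals. Dotted lines mark 2-fold, and the triangle is the upper bound for HES1. DLL1 in the AML1-ETO line is at 2.12 before induction, and JAG1 moves from 0.15 at 0 h to -3.65 at 48 h.

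A list of 54 other genes of the pathway, drawn up by role, was read in the same way. All 54 were found, 38 had a mean of at least 1 FPKM over the 9 libraries, and 6 were listed at 0 in every library. NOTCH3, NOTCH4, DLL3 and DLL4 stayed at or below 0.107 FPKM, so the ligands and receptors expressed in these cells were largely the ones described above, together with the non-canonical ligands DLK1 and DLK2. In the AML1-ETO line at 48 h, 39 of the list passed the filter, of which 5 rose and 9 fell (12.6% and 9.88% of all genes). Their median log2 fold change was 0.17, beside 0.22 for all genes. With the empty vector 3 of 38 rose and 0 fell (11.0% of all genes called), and with ETO2-GLIS2 0 of 38 were called (7.52% of all genes), DLK1 and DLK2 having been left out for their rise with the empty vector. None was called at both 12 h and 48 h in a fusion line, which was the condition set for naming, so the genes named next were chosen after their values were seen.

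Enzymes that process or modify the receptor moved in different directions in the AML1-ETO line. LFNG, the Lunatic Fringe glycosyltransferase that shifts receptor preference between Delta and Jagged ligands, went from 6.76 to 4.48 and 0.509 FPKM, or -3.71 (-4.35 to -3.17) in log2 at the last hour, while with the empty vector it rose from 4.74 to 10.7 and 10.8 FPKM. Its relative MFNG fell by 1.55 on the log2 scale, where the empty vector line had 0.47. RFNG rose by 1.12 (0.95 to 1.28), near the threshold, where the empty vector line had 0.56. The receptor convertase FURIN fell by 1.39, and the shedding protease ADAM17 rose from 9.49 to 26.1 FPKM, a log2 of 1.46 (1.38 to 1.54). The gamma-secretase genes PSEN2, NCSTN, APH1A and APH1B were not called in any line at 12 h or 48 h against 0 h.

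Among factors that act with RBPJ, the coactivator MAML2 rose from 0.229 to 2.57 FPKM, a log2 of 3.44 (2.92 to 4.12), and passed the filter in the AML1-ETO line alone, through its 48 h library. The acetyltransferase gene KAT2B fell from 8.70 to 1.08 FPKM, a log2 of -2.99 (-3.34 to -2.68). Among the corepressor genes of the list, L3MBTL3 fell with AML1-ETO, at -1.11 (-1.46 to -0.78), where the empty vector line had -0.97, and CTBP1 was at -1.0 (-1.10 to -0.91), at the edge of the threshold. HES6, which belongs to the HES family, fell from 80.7 to 23.8 FPKM, and was by far the most abundant HES gene in these cells. DTX3L, an E3 ubiquitin ligase of the Deltex family, rose from 8.44 to 62.1 FPKM. The ligand ubiquitin ligase MIB2 rose by 1.05 (0.96 to 1.15) on the log2 scale, also at the edge of the threshold. DLK1 fell from 2.22 to 0.163 FPKM with AML1-ETO. In the empty vector line it rose from 1.89 to 4.83 FPKM, and in the ETO2-GLIS2 line it was at 2.90 and 10.3 FPKM, where the rule left it out because the empty vector line had passed 2-fold too. The same rule left out DLK2, which went from 0.461 to 2.87 FPKM with ETO2-GLIS2, a log2 of 2.61 (1.93 to 3.43), and stood at 1.19 (0.77 to 1.64) with AML1-ETO and 1.07 (0.60 to 1.57) with the empty vector.

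**Figure D5:**
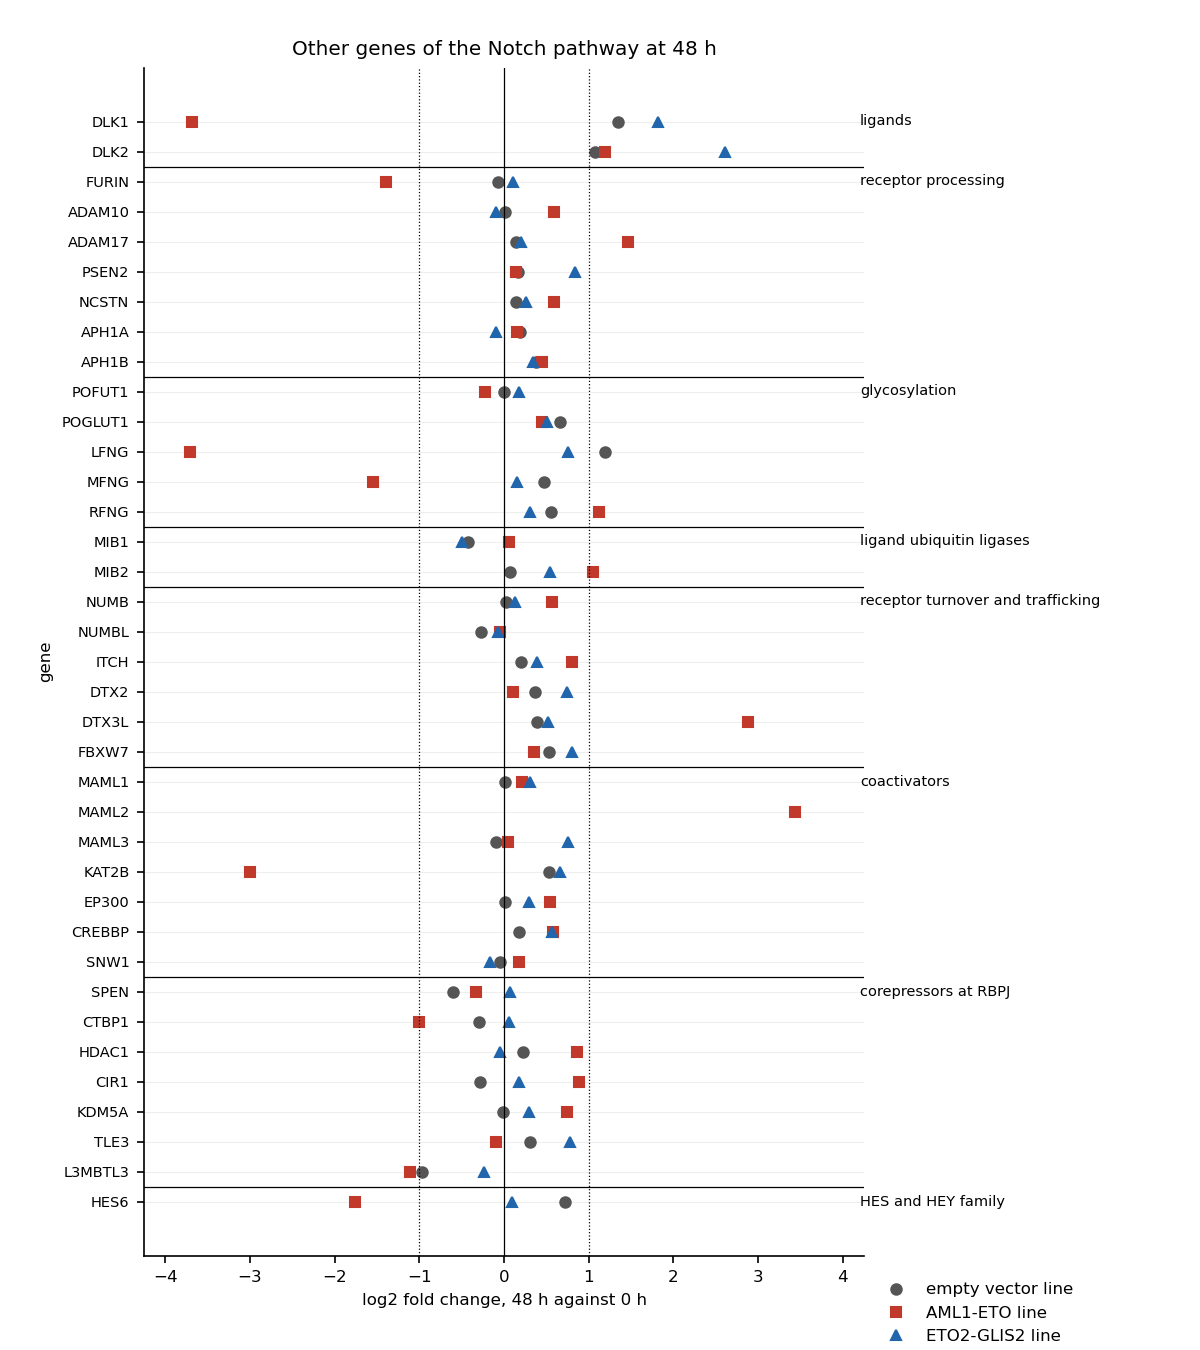
Log2 fold change of FPKM plus 0.01, 48 h against 0 h (horizontal axis), for genes of the wider list that passed the filter on low values, grouped by role, with 1 library per point and hour and dotted lines at 2-fold. AML1-ETO squares reach from -3.71 (LFNG) to 3.44 (MAML2), while those of the other lines lie mostly between the dotted lines. MAML2 has a point for the AML1-ETO line alone because it passed the filter there only.

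For each member with a mean of at least 1 FPKM, the genes with the most similar pattern over the 9 libraries were found by Pearson correlation of log2 FPKM among 7224 genes with a mean of at least 5 FPKM. The libraries share lines and hours, so these values describe the pattern and have no p. JAG1 was closest to CDCA2 (r = 0.993) and RXRA (r = 0.992), and JAG2 to VPS26C (r = 0.982) and PHF1 (r = 0.974). NOTCH2 was closest to DIAPH1 (r = 0.991) and TOP2B (r = 0.987), NOTCH1 to PHF19 (r = 0.964) and CIZ1 (r = 0.957), and RBPJ to APBA2 (r = 0.987) and PODXL (r = 0.986). The genes that were high in the AML1-ETO line at every hour had other neighbours. DLL1 was closest to AGO4 (r = 0.941) and DMAC2 (r = 0.927), HES4 to ENTPD6 (r = 0.963) and ATXN7L3B (r = 0.961), and NRARP to CORO2A (r = 0.964) and PTP4A3 (r = 0.941). Among the members themselves, JAG1 and NOTCH2 had r = 0.882, DLL1 and NRARP r = 0.766, and JAG2 and RBPJ r = -0.906.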

How the data were processed

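RNA of 9 U937 cultures was sequenced, 1 library per line and hour. The authors aligned reads to hg38 with HISAT2 (2.0.5), handled alignments in SAMtools (1.7), ran HTSeq (0.9.1) for counting, and deposited FPKM. The annotation version and exon lengths are not given in the sources used here. Library totals and reads were recovered from the steps between low FPKM values, and 1495 of 1500 sampled genes gave whole reads in all libraries within 0.1 read. Python (3.11.15), numpy (2.4.6), pandas (2.3.3), scipy (1.17.1) and matplotlib (3.10.9) were used, and the calling and the recovery were tested on simulated data. Samples were grouped by the labels' line and hour. The rules (2-fold, mean of at least 1 FPKM, empty vector exclusion) follow the study's methods, which give no FPKM threshold. The members and lists were chosen with earlier results of these data known. The rule named the 10 members, the 3 construct genes, wider-list genes called at both hours in a fusion line, and the 2 most similar genes per member. No wider-list gene met it, and those named were chosen after their values were seen. Coordinates and promoters are RefSeq GRCh38.p14. Exon overlaps come from a GRCh37 annotation, without its coordinates. Alternatives covered the pseudocount, filter, scaling, fold threshold, reference library and empty vector change. Some genes of the lists are counted but not reported by name here.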

Additional observations from a re-analysis of the deposited data

Results flagged for a closer look

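NOTCH1 moved in opposite directions in the AML1-ETO and empty vector lines. Its log2 fold change at 12 h and 48 h was -0.47 and -0.84 with AML1-ETO and 0.15 and 0.38 with the empty vector, a difference of -1.22 at 48 h. With 1 library per condition this difference was not tested, and its interval of -1.34 to -1.11 covers counting error only.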

How the results depend on the processing

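No paired analysis was possible because the labels carry no replicate numbers and each condition had 1 library, so no library could be left out either. No called direction reversed under any alternative. Counts of members called against 0 h changed as follows. Without a filter on low values, 1 member was called with the empty vector at 12 h (HES1, against 34.5% of all genes). At 48 h 2 were called there (36.8%). With AML1-ETO 4 were called at 48 h (HES1 added, 37.0%). With ETO2-GLIS2 1 was called at either hour (HEY1, on at most 1 read, 22.3% and 26.8%). With a mean of at least 5 FPKM, 0 were called with the empty vector at 48 h (5.59% of all genes). With AML1-ETO 1 was called then (NOTCH2, 17.8%). A 1.5-fold threshold gave 1 and 2 with the empty vector at the early and late hour (18.2% and 27.8% of all genes). With AML1-ETO it gave 2 and 5 (15.5% and 33.8%), and with ETO2-GLIS2 it gave 2 at the late hour (13.8%). A pseudocount of 0.1 or 1 FPKM and scaling by median ratios each left 0 with the empty vector at 48 h. The shares of all genes called were then 10.2%, 5.70% and 9.95%. Median-ratio scaling gave 4 with AML1-ETO at 48 h (RBPJ added, 22.0% of all genes). Subtracting the empty vector change gave 1 in the ETO2-GLIS2 line at 48 h (HES4, against 8.63% of all genes). In the AML1-ETO line it gave 3, with NOTCH1 in place of NOTCH2 (24.1%). Scaling by median ratios moved the median of all genes in the AML1-ETO line at 48 h from 0.22 to 0.06 and the split of calls from 1515 higher and 1188 lower to 1245 and 1397. The share of higher calls went from 72.8% to 59.1% at 48 h with the empty vector and from 72.5% to 58.3% at 12 h with AML1-ETO. Of single members' values, subtracting the empty vector change moved 25 of 40 outside their counting interval and turned the sign of 8, and median-ratio scaling moved 19 of 60 and turned 6. A pseudocount of 1 FPKM moved 6 of 60 and turned 0. Depth limits HES1 and HEY1, and the cause of other changes was not tested.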
